A study of Mus musculus with 16 samples.

Results

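The genes described here are 34 members of the amino acid stress response and of the set of targets linked to activating transcription factor 4 (ATF4), chosen by name from the 55401 genes listed in the RNA-seq files. Their 7 roles were transcription factors, feedback and growth brakes, serine and one-carbon metabolism, proline synthesis, asparagine synthesis and transsulfuration, amino acid transport, and secreted factors with 1 receptor. The cells were CD8+ T cells from spleens of OT-I mice, whose transgenic T cell receptor recognizes an ovalbumin peptide. They were wild type (WT) or TPdh-/-, in which CD4-cre deletes a floxed part of Pdha1 in T cells and so removes a subunit of the pyruvate dehydrogenase complex. CD4-cre acts from thymic development onward, so the deletion preceded activation. Cells of both genotypes were activated with the peptide for 3 days and then held for 4 days in interleukin 2, which gives effector cells (TE), or in interleukin 15, which gives memory cells (TM). The methods give mice of both sexes aged 8 to 12 weeks. Each of the 4 groups had 4 libraries, numbered 1 to 4 for WT TE, 5 to 8 for TPdh-/- TE, 9 to 12 for WT TM and 13 to 16 for TPdh-/- TM. The study describes the RNA-seq replicates of TM cells as mice, in a number per condition that differs from the libraries used here. Nothing in the labels ties a library to its own mouse, so the p-values reflect the spread between libraries, which may be technical.

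ATF4 is the central effector of the integrated stress response. When amino acids run short, mitochondria are disturbed or proteins fold poorly, kinases phosphorylate the initiation factor eIF2, general translation slows, and the mRNA of Atf4 is translated more. ATF4 pairs with C/EBP family proteins on composite sites known as C/EBP-ATF response elements and raises genes for amino acid uptake and synthesis, aminoacyl-tRNA charging and redox balance. In activated T cells these genes supply serine, one-carbon units, asparagine and large neutral amino acids for growth, and their uptake is carried in large part by the Slc7a5 and Slc3a2 heterodimer and by Slc1a5.

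The promoters of members that rose in TPdh-/- TE and hold the core of this element are printed below, because they show the sequence that this gene group is known for. RefSeq promoters of 300 bases, from 250 before to 50 after the start of transcription in GRCm38.p6, were given for 28 of the 34 members, as 35 promoters. The core TGATGNAA, searched on both strands, was in 10 of these 35 promoters (28.6%) and in 1304 of 32851 promoters in all (3.97%). The members were named for their link to ATF4, so this share is no independent evidence. Each line below reads 5′ to 3′ on the gene's own strand, with the matched core in capitals.
Asns, chr6:7693210-7693269: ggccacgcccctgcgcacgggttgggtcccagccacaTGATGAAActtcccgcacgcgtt
Atf3, chr1:191183410-191183469: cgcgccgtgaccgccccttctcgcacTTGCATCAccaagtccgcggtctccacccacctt
Chac1, chr2:119351023-119351082: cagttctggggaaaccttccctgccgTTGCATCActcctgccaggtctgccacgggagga
Nupr1, chr7:126625547-126625606: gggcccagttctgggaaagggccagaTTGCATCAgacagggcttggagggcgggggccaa
Pycr1, chr11:120643818-120643877: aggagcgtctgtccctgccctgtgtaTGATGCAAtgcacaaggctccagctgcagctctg
Slc1a4, chr11:20332710-20332769: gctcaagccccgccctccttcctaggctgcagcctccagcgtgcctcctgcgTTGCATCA
Slc7a11, chr3:50443646-50443705: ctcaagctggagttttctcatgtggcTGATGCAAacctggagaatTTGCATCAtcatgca
Trib3, chr2:152344028-152344057: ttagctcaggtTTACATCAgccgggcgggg
Chac1 lies on the plus strand and the other 7 genes on the minus strand.

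Slc7a11 held the core on both strands within 1 window, with starts 66 and 47 bases before the start of transcription. The core of Trib3 began at base 15 of the transcript, and that of Slc1a4 straddled the start site. The promoters of Fgf21 and Vldlr also held the core. The cAMP response element TGACGTCA, to which ATF and CREB proteins bind, was in 1 member promoter, that of Ppp1r15a, against 1.79% of all promoters. Among the 9 tested members with the core, 8 were higher in TPdh-/- TE than in WT TE and the median log2 difference was 2.02. Among the 16 tested members whose promoters lacked it, 14 were higher and the median was 0.63. Of all genes tested, 17.3% were called higher in TPdh-/- TE and 14.3% lower, 31.6% in all. Slc7a11, with the core, and Cebpb, without it, had enough counts for the test only with TPdh-/- libraries included. Their calls add no independent support. The members without the core reached a log2 difference of 3.79, so the 2 ranges overlapped, and no match says only that these letters are not in this window. The 2 sets also differed in starting level. With the core, Atf3, Chac1, Nupr1, Slc1a4 and Slc7a11 were under 1 TPM (counts scaled to transcript length and library size) in WT TE. Without it, only Cebpb and Slc6a9 were. Over all tested members, the median was 3.12 under 1 TPM and 0.49 at 10 TPM or more. The core was not tested apart from level.

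**Figure D1:**
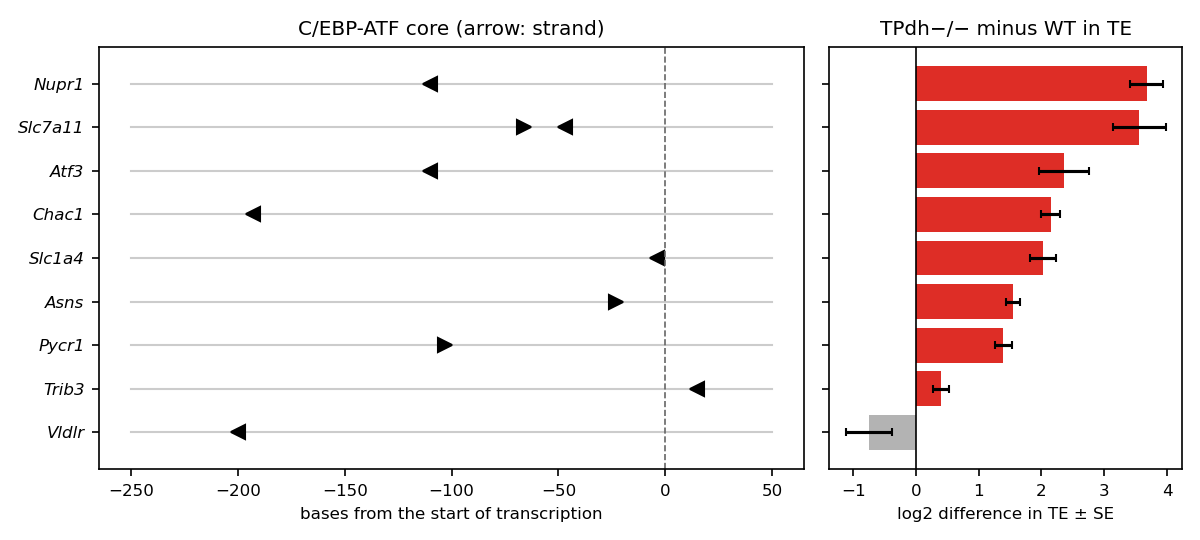
The left panel marks where the C/EBP-ATF core begins in bases from the start of transcription (dashed line), with the arrow giving its strand, and the right panel gives the log2 difference between TPdh-/- and WT in TE with its SE for the same 9 tested members. The 8 red bars were called higher and lie between 0.40 and 3.68, and the grey bar of Vldlr was not called.

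The libraries held 53007257 to 73507566 counts assigned to genes, and 15277 genes, 31 of the members among them, had enough counts for the test. Pdha1, the targeted gene, was at 161 ± 0.787 CPM (counts scaled to the size of the library; SD, n = 4) in WT TE and 153 ± 4.21 CPM in TPdh-/- TE, and was not called (log2 -0.08). In TM it averaged 178 ± 11.6 CPM for WT and 153 ± 8.51 CPM for TPdh-/-, and was called lower (log2 -0.22). The paper reports Pdha as not detected by qPCR and the PDHA protein as absent by immunoblot in TPdh-/- splenic T cells. The counts used here are of the whole gene, while the deletion is of a floxed part. Which exons the reads covered was not examined, and why the count stayed was not tested. The gene count therefore does not check the genotype labels. CD8 T cell markers summed to 3922 to 6179 TPM (counts scaled to transcript length and library size) in every library. Library 5 differed from the other TPdh-/- TE libraries and library 12 from the other WT TM libraries by more than most pairs of a group. The counts of members called were therefore also computed without those 2 libraries.

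Levels between genes are given in TPM and differences between groups in CPM. In WT TE, 16 members were at 10 TPM or more, 5 between 1 and 10 TPM, and 13 under 1 TPM. Phgdh, the first enzyme of serine synthesis, led with 158.5 ± 14.4 TPM (SD, n = 4). Atf4 followed at 114 ± 2.99 TPM, then Slc1a5 at 87.4 ± 1.48 TPM and Psat1 at 86.1 ± 3.35 TPM. The last 2 did not differ beyond their spread, while Atf4 lay above both in each library. Fgf21 and Gdf15, secreted stress hormones, had 0 counts in every library, which allows up to 0.0408 to 0.0566 CPM per library. Cbs, the enzyme that starts transsulfuration, had 60 counts over all libraries and was not tested. Intervals and limits from counts cover counting error only.

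In TE, the loss of pyruvate dehydrogenase went with a rise of nearly the whole group. Of the 31 members tested, 28 were higher in TPdh-/- TE than in WT TE and 0 were lower in edgeR's quasi-likelihood test at an adjusted p below 0.05. Over all 15277 genes tested, 17.3% were called higher and 14.3% lower, 31.6% in all. The median log2 difference was 0.70 over the members and 0.00 over all genes. The TPdh-/- and WT libraries did not overlap in CPM for 23 of the members, against 33.1% of all genes. By role, 8 of 8 transporters, 6 of 6 transcription factors, 5 of 6 serine and one-carbon enzymes, both proline enzymes, Asns and Cth, 4 of 5 brakes, and Stc2 were higher. Of these, Cth, Aldh1l2 and Slc7a11 had 10 counts or fewer in every WT library. They had enough counts for the test only through TPdh-/- libraries. A call other than higher was hardly open to them, so their calls add no independent support. Cebpb, with 6 to 14 counts in each WT library, had enough counts only with TPdh-/- libraries included. Its call therefore adds no independent support either. Of all genes called, 54.8% were higher on the CPM scale and 84.0% on the log2(TPM + 1) scale, on which the median of all genes shifted by 0.09. On log2(TPM + 0.1) the share was 84.8% and the shift 0.14. The members' median was 0.68 and 0.79 on these 2 scales, with 29 members higher on each.

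**Figure D2:**
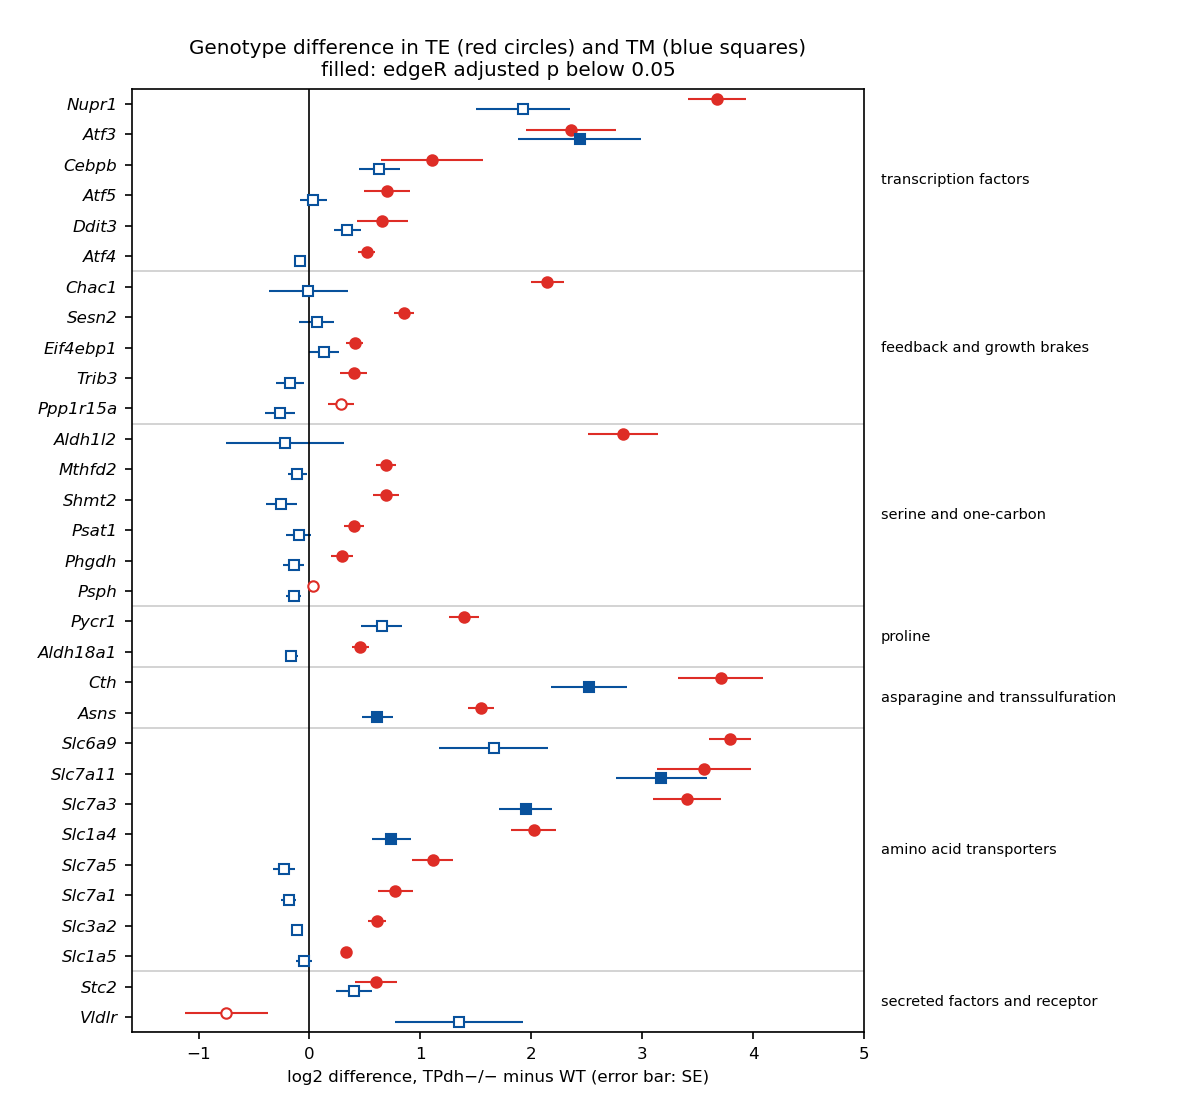
Points give the log2 difference between TPdh-/- and WT for the 31 tested members, in TE (red circles) and in TM (blue squares), with the SE over libraries as error bar and members grouped by role. Filled points passed the edgeR test, which 28 members did in TE and 6 in TM. Differences in TM that rest on under 10 counts in the WT group (Nupr1, Chac1, Cth, Slc6a9 and Vldlr) depend on the offset that the fit adds to counts.

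The transcription factors rose by unequal amounts. Atf4 itself was at 158, 152, 158 and 159.6 CPM in WT TE and at 234, 225, 193 and 247 CPM in TPdh-/- TE. All 4 TPdh-/- libraries lay above all WT libraries, with a log2 difference of 0.52 ± 0.078 (SE; edgeR adjusted p = 6.2e-06). Nupr1, a small chromatin protein induced by many stresses, was at 0.47, 0.34, 0.40 and 0.57 CPM in WT TE and at 5.62, 5.25, 3.90 and 8.06 CPM in TPdh-/- TE. This 12.8-fold rise (log2 3.68 ± 0.26, edgeR adjusted p = 7.1e-08) was the steepest of the factors, and no library overlapped. Atf3, a repressor that limits the response, was at 0.48, 0.34, 0.70 and 0.52 CPM in WT TE and at 2.35, 1.45, 2.08 and 4.71 CPM in TPdh-/- TE. It rose by 2.36 ± 0.40 on the log2 scale (edgeR adjusted p = 2.2e-04), with library 8 far above the other 3. Atf5, a factor tied to mitochondrial protein stress, rose by 0.70 ± 0.21 (edgeR adjusted p = 0.0040).

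Ddit3, which encodes the stress factor CHOP, was more uneven. It was at 11.4, 11.1, 13.03 and 11.0 CPM in WT TE and at 11.8, 16.8, 20.3 and 24.6 CPM in TPdh-/- TE. Library 5 lay within the WT range and the other 3 lay above it, with a log2 difference of 0.66 ± 0.23 (edgeR adjusted p = 0.0045). Cebpb, a partner of ATF4, had 41 counts in WT TE and 93 in TPdh-/- TE over 4 libraries each, with a log2 difference of 1.11 ± 0.46 (edgeR adjusted p = 0.030). Its call was lost when any 1 of libraries 1, 2, 4, 6 and 8 was left out, with an edgeR adjusted p of 0.060 to 0.13. Exons of Atf5, Ddit3, Cebpb, Ppp1r15a, Psph, Shmt2, Aldh1l2 and Slc6a9 overlap those of other genes, and the libraries do not keep strand, so reads of these 8 members are uncertain there.

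The brakes are targets that feed back on the response or slow growth. Chac1, which degrades glutathione, was at 0.22, 0.26, 0.26 and 0.31 CPM in WT TE and at 1.08, 1.40, 0.96 and 1.20 CPM in TPdh-/- TE, and the groups were well apart (log2 2.14 ± 0.15, edgeR adjusted p = 2.9e-05). Sesn2, a leucine sensor that restrains mTORC1, was at 11.4, 12.6, 12.6 and 12.2 CPM in WT TE and at 20.5, 20.96, 20.5 and 26.0 CPM in TPdh-/- TE. Its log2 difference was 0.85 ± 0.090 (edgeR adjusted p = 2.5e-05) with no overlap. Eif4ebp1, the repressor of cap-dependent translation, rose by 0.41 ± 0.074 (edgeR adjusted p = 0.0040). Trib3, a pseudokinase that binds ATF4, rose by 0.40 ± 0.13 (edgeR adjusted p = 0.011), and WT library 3 at 26.7 CPM overlapped the TPdh-/- range of 26.3 to 30.5 CPM. Without WT library 4 this call was lost (0.32, edgeR adjusted p = 0.050). Ppp1r15a, the stress-induced phosphatase subunit that reverses eIF2 phosphorylation, was not called (0.28 ± 0.12, edgeR adjusted p = 0.065). Its call was gained without library 5 (0.36, edgeR adjusted p = 0.028).

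The serine and one-carbon enzymes were among the most abundant members, and their median log2 difference was 0.55. Shmt2, which makes glycine and a one-carbon unit from serine in mitochondria, was at 75.1, 87.6, 89.9 and 82.8 CPM in WT TE and at 150.3, 149.6, 113 and 129 CPM in TPdh-/- TE. Mthfd2, the next mitochondrial folate enzyme, was at 68.01, 67.9, 65.3 and 70.2 CPM in WT TE and at 124, 111, 91.8 and 111 CPM in TPdh-/- TE. Both were higher in every TPdh-/- library, by 0.69 ± 0.12 and 0.69 ± 0.093 on the log2 scale (edgeR adjusted p = 1.7e-04 and 7.1e-06). Psat1, the aminotransferase of serine synthesis, was at 187, 186, 176 and 190.3 CPM in WT TE and at 271, 252, 206 and 248 CPM in TPdh-/- TE (log2 0.40 ± 0.088, edgeR adjusted p = 0.0024). Its groups did not overlap. Phgdh was at 221, 267, 226 and 247 CPM in WT TE and at 325, 318, 259 and 278 CPM in TPdh-/- TE. WT library 2 lay above TPdh-/- library 7, and the call (0.30 ± 0.0996, edgeR adjusted p = 0.017) was lost without library 1, 3, 5 or 6, with values of 0.25 to 0.26. Psph, the phosphatase that completes serine synthesis, differed by 0.03 ± 0.049 (edgeR adjusted p = 0.74) with overlapping libraries. Aldh1l2, a mitochondrial folate dehydrogenase, had 3, 5, 3 and 3 counts in WT TE and 25, 20, 21 and 39 in TPdh-/- TE, so it rose (2.83 ± 0.31, edgeR adjusted p = 3.7e-04) from a level near its detection limit.

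The 2 proline enzymes differed in size. Aldh18a1, which catalyses the first steps from glutamate, was at 74.0, 79.1, 77.9 and 81.9 CPM in WT TE and at 115.3, 115.3, 94.3 and 105 CPM in TPdh-/- TE. Pycr1, which catalyses the last step in mitochondria, was at 2.26, 2.21, 2.38 and 2.04 CPM in WT TE and at 4.61, 6.18, 5.52 and 7.08 CPM in TPdh-/- TE. Neither gene overlapped between groups, and the log2 differences were 0.46 ± 0.075 and 1.39 ± 0.14 (edgeR adjusted p = 4.6e-05 and 1.7e-06). Asns, the asparagine synthetase and the classical amino acid response gene, was at 24.9, 23.4, 27.0 and 27.8 CPM in WT TE and at 76.6, 75.0, 62.1 and 87.4 CPM in TPdh-/- TE. The lowest TPdh-/- library was above the highest WT library by a wide margin, a 2.92-fold rise (log2 1.55 ± 0.12, edgeR adjusted p = 4.1e-08). Cth, which makes cysteine from cystathionine, had 3, 2, 2 and 5 counts in WT TE and 41, 29, 33 and 63 counts in TPdh-/- TE. Its log2 difference of 3.71 ± 0.39 (edgeR adjusted p = 1.3e-05) rests on 12 counts in all WT TE libraries together.

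All 8 transporters rose, with a median log2 difference of 1.57, and none of their groups overlapped. Slc7a5, the large neutral amino acid exchanger, was at 65.0, 82.7, 79.3 and 89.1 CPM in WT TE and at 206, 191, 127 and 159 CPM in TPdh-/- TE. Its log2 difference was 1.11 ± 0.18 (edgeR adjusted p = 5.0e-06), and library 5 was the highest. Its heavy chain partner Slc3a2 was at 71.4, 76.8, 79.0 and 75.6 CPM in WT TE and at 127, 121, 101 and 113 CPM in TPdh-/- TE (0.61 ± 0.077, edgeR adjusted p = 1.4e-06). The cationic carrier Slc7a1 was at 95.9, 106, 104 and 112 CPM in WT TE and at 226, 187, 139.7 and 161 CPM in TPdh-/- TE (0.78 ± 0.16, edgeR adjusted p = 3.4e-05). These 3 carriers were lowest in library 7 among the TPdh-/- libraries.

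The low carriers rose most in ratio. Slc7a3, another cationic carrier, was at 0.67, 0.68, 0.91 and 0.94 CPM in WT TE and at 6.91, 7.49, 5.63 and 13.98 CPM in TPdh-/- TE, a 10.6-fold rise (log2 3.41 ± 0.31, edgeR adjusted p = 5.9e-08). Slc6a9, the glycine carrier, had 15, 18, 21 and 20 counts in WT TE and 234, 322, 224 and 296 in TPdh-/- TE, a 13.8-fold rise (3.79 ± 0.19, edgeR adjusted p = 5.9e-08). Library 8 was the highest for Slc7a3 and Slc6a9 in CPM. Slc1a4, which carries serine and alanine, was at 2.28, 3.02, 3.48 and 3.81 CPM in WT TE and at 13.5, 12.7, 10.01 and 14.9 CPM in TPdh-/- TE (2.02 ± 0.20, edgeR adjusted p = 1.1e-07). Slc7a11, the cystine and glutamate exchanger, had 10, 4, 2 and 3 counts in WT TE and 37, 63, 52 and 85 in TPdh-/- TE (3.56 ± 0.42, edgeR adjusted p = 1.7e-05). Slc1a5, the abundant glutamine carrier, rose least of the 8 (0.33 ± 0.032, edgeR adjusted p = 4.1e-04), from 189 to 194 CPM in WT TE to 227 to 252 CPM in TPdh-/- TE.

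Stc2, a secreted glycoprotein, was at 29.8, 27.0, 34.98 and 23.7 CPM in WT TE and at 46.5, 53.03, 42.9 and 32.3 CPM in TPdh-/- TE. It rose by 0.60 ± 0.19 (edgeR adjusted p = 0.0059), although library 8 lay below WT library 3. Vldlr, a lipoprotein receptor, was the only tested member with a negative difference in TE. It was at 8.54, 9.04, 12.2 and 4.35 CPM in WT TE and at 4.66, 5.95, 6.29 and 3.37 CPM in TPdh-/- TE. The groups overlapped and the difference was not called (log2 -0.75 ± 0.37, edgeR adjusted p = 0.054), but it was called lower without library 4 (-0.98, edgeR adjusted p = 0.011) or library 7 (-0.88, edgeR adjusted p = 0.045).

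**Figure D3:**
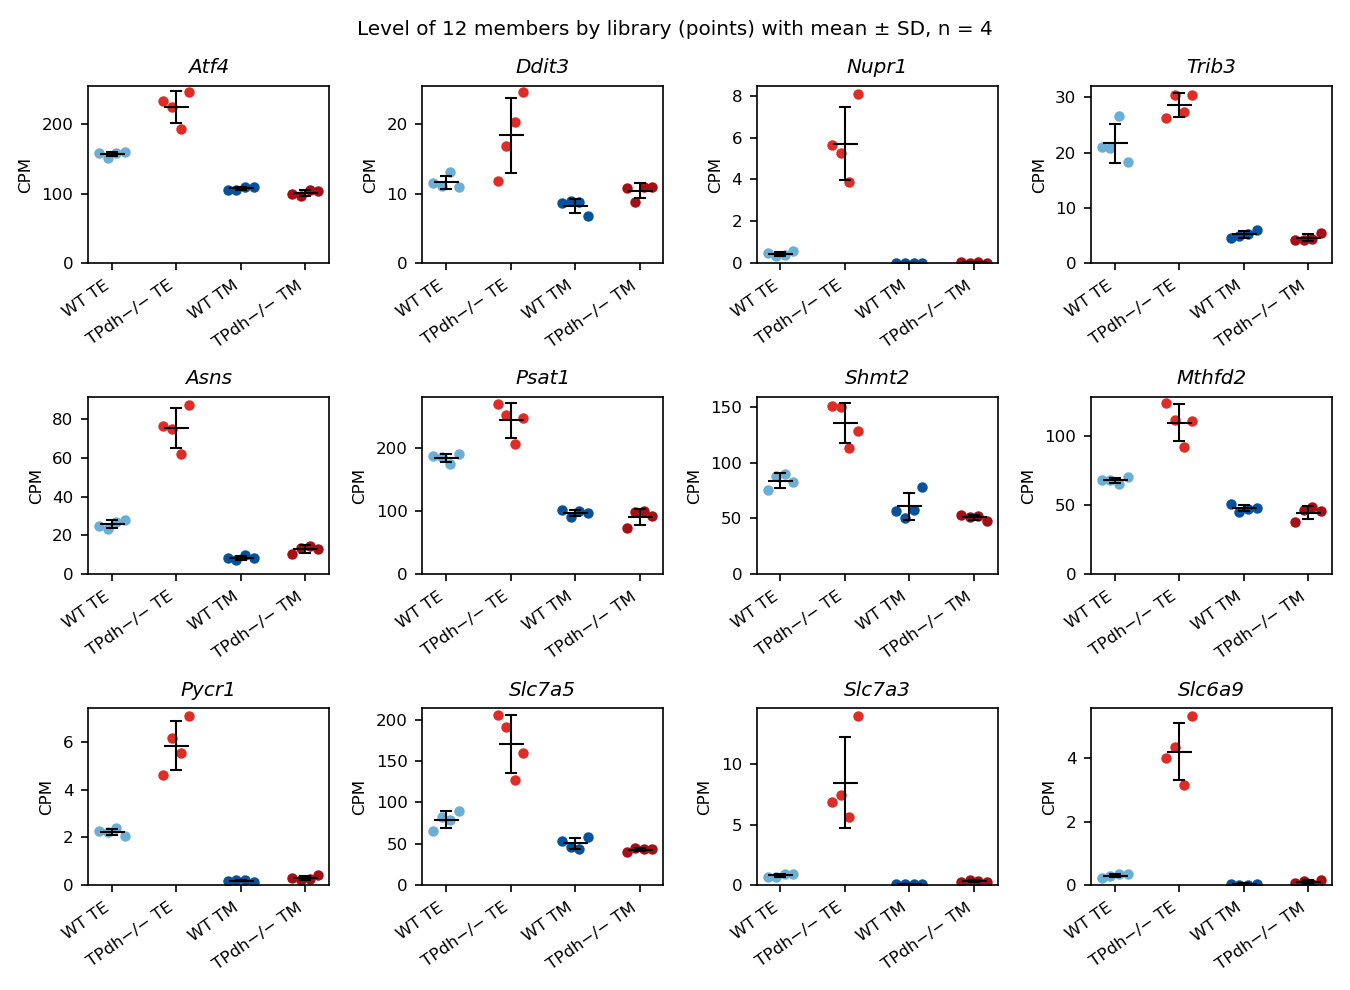
Points give CPM by library for 12 members in the 4 groups of 4 libraries, with the mean and SD as black marks. TPdh-/- TE is the highest group for each of the 12 genes, with group means of 225 CPM for Atf4 and 75.3 CPM for Asns, and one TPdh-/- TE library of Ddit3 sits within the WT TE range.

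In TPM the order of the gains was different from that of the ratios. Atf4 gained most, 66.4 TPM from WT TE to TPdh-/- TE, followed by Phgdh with 56 TPM, Psat1 with 39.4 TPM, Shmt2 with 38.2 TPM and Slc3a2 with 37.8 TPM. Asns gained 35.9 TPM and Slc7a5 35.8 TPM. By contrast, the 10 tested members that were under 1 TPM in WT TE had a median log2 difference of 3.12 and gained at most 11.54 TPM (Nupr1). Cth, Aldh1l2, Slc7a11 and Cebpb, tested only through their counts in TPdh-/- libraries, are among these 10. The 16 members at 10 TPM or more had a median log2 difference of 0.49, and 14 of them were called. Among the TPdh-/- TE libraries, library 8 was the highest of the 4 for 17 of the 31 members and library 7 the lowest for 17. The median log2 difference of the members from the WT TE mean was 0.75, 0.84, 0.59 and 1.02 in libraries 5 to 8, and -0.04, -0.03, 0.05 and 0.02 in libraries 1 to 4. All 4 TPdh-/- TE libraries thus lay above all 4 WT TE libraries on this median.

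**Figure D4:**
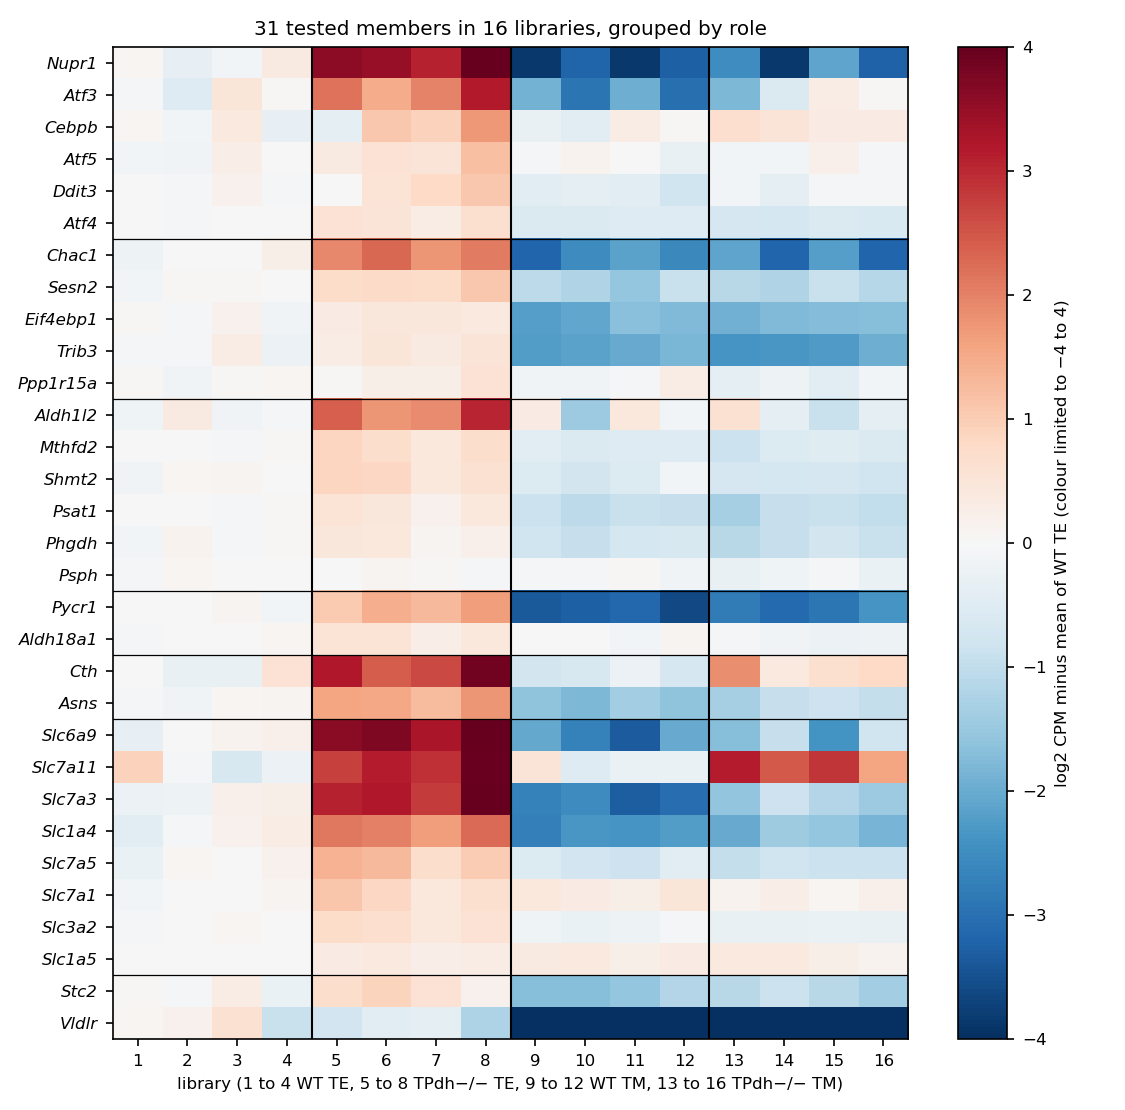
Colour gives the log2 CPM of each of the 31 tested members in each of the 16 libraries, relative to the mean of WT TE, with members ordered by role and vertical lines between groups. Libraries 5 to 8 are red for nearly all members, with a median of 0.59 to 1.02, and the 8 TM libraries are blue for most, with a median of -0.96 to -0.69.

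In TM the same genotype comparison called a share of the members near that of all genes. Of the 31 members, 6 were higher in TPdh-/- TM than in WT TM and 0 were lower, 19.4% called. Of all genes, 11.0% were higher and 7.27% lower, 18.3% in all. The members' median log2 difference was 0.03. Libraries did not overlap for 8 members, against 20.8% of all genes. The 6 were Atf3, Asns, Cth, Slc7a11, Slc7a3 and Slc1a4. Of these, Cth and Slc7a11 had enough counts for the test only through TPdh-/- libraries. A call other than higher was hardly open to them in TM as well, so these calls add no independent support. In a fit of only the 2 TM groups, 4 members were called higher. By edgeR none of the 6 serine and one-carbon enzymes, the 2 proline enzymes or the 5 brakes was called. Pycr1 was called higher with limma on log2 CPM (0.56, adjusted p = 0.034) and on log2(TPM + 0.1) (0.69, adjusted p = 0.0039). Atf4 was at 105, 105, 109.9 and 110.1 CPM in WT TM and in TPdh-/- TM at 99.3, 96.0, 106 and 104 CPM, a log2 difference of -0.09 ± 0.036 (edgeR adjusted p = 0.34).

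Asns was the only member called higher in TM among those at 10 TPM or more in WT TE. It was at 8.42, 7.35, 9.74 and 8.32 CPM in WT TM and at 10.2, 13.7, 14.6 and 13.2 CPM in TPdh-/- TM, with no overlap (0.61 ± 0.14, edgeR adjusted p = 0.0014). Slc1a4 was at 0.44, 0.59, 0.58 and 0.63 CPM in WT TM, and TPdh-/- TM libraries were at 0.74, 1.14, 1.03 and 0.83 CPM (0.74 ± 0.18, edgeR adjusted p = 0.021). Its groups did not overlap, yet the call was lost without library 9, 14 or 15 (0.63 to 0.69, edgeR adjusted p = 0.054 to 0.072). The other 4 were scarce. Slc7a11 had 7, 2, 3 and 3 counts in WT TM and 50, 29, 46 and 15 in TPdh-/- TM (3.17 ± 0.41, edgeR adjusted p = 2.0e-04). Slc7a3 had 6, 6, 3 and 4 counts against 14, 24, 22 and 15 (1.95 ± 0.24, edgeR adjusted p = 0.0048). Both were apart in every library. Atf3 had 7, 2, 6 and 2 counts against 7, 18, 41 and 29 (2.44 ± 0.55, edgeR adjusted p = 0.0074). Cth had 1, 1, 2 and 1 counts against 15, 4, 6 and 6 (2.52 ± 0.35, edgeR adjusted p = 0.013), and without library 13 it was not called (1.98, edgeR adjusted p = 0.055). All 4 stayed under 1 TPM in both groups, as did the means of Slc1a4 (0.188 TPM in WT TM and 0.3 TPM in TPdh-/- TM). On the log2(TPM + 1) scale, which flattens such genes, only Asns was called.

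Pycr1 had 12, 11, 13 and 9 counts in WT TM and 17, 13, 18 and 23 in TPdh-/- TM. Its CPM did not overlap between the groups, but it missed the test (0.65 ± 0.19, edgeR adjusted p = 0.074). Nupr1 had 2 counts in all WT TM libraries and 9 in all TPdh-/- TM libraries, and Chac1 had 4 in each group, so neither can be compared at this depth. Slc6a9 had 7 against 23 counts and was not called by edgeR (1.66 ± 0.49, edgeR adjusted p = 0.067), but was by DESeq2 (1.72, adjusted p = 0.043) and by limma on log2 CPM (1.07, adjusted p = 0.041). Stc2 was called only without library 12 (0.54, edgeR adjusted p = 0.033).

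Genes listed here as markers of other cells differed between genotypes in the same libraries. The paper reads raised killer-like receptor genes in TPdh-/- TM as markers of an effector phenotype of the T cells. In TM, 8 of 8 natural killer cell markers were higher in TPdh-/-, and their summed level was 6.19 to 9.48 TPM in WT and 76.4 to 117 TPM in TPdh-/-. The 12 macrophage and monocyte markers summed to 5.71 to 6.67 and 22.9 to 39.0 TPM, with 6 of 7 tested higher and a median log2 difference of 2.16, mostly through Lyz2 in the sum. The defining macrophage genes Csf1r and Adgre1 were among the 6. Csf1r was at 0.05 to 0.15 TPM in WT TM and 0.43 to 0.62 TPM in TPdh-/- TM, and Adgre1 at 0.06 to 0.29 and 0.19 to 0.68 TPM. Gamma-delta T cell markers, 5 of 5 higher, summed to 54.8 to 63.1 and 145 to 193 TPM, and plasma cell markers, 2 of 5 higher, to 7.34 to 29.1 and 49.1 to 176 TPM. CD4 T cell markers (2 of 3 higher) summed to 2.78 to 4.22 and 5.36 to 9.38 TPM, and dendritic cell markers (2 of 2 tested higher) to 0.43 to 0.48 and 0.97 to 1.61 TPM. In TE, gamma-delta markers (5 of 5 higher) summed to 83.4 to 95.1 TPM in WT and 167 to 265 TPM in TPdh-/-. NK cell markers (6 of 8 higher) summed to 9.85 to 13.2 and 13.02 to 24.1 TPM, macrophage markers (4 higher and 1 lower of 7) to 10.2 to 13.9 and 14.4 to 23.7 TPM, and plasma cell markers (3 of 5 higher) to 2.99 to 8.98 and 9.59 to 75.5 TPM. The sum of dendritic cell markers went the other way in TE, 2.61 to 3.32 TPM in WT and 1 to 1.58 TPM in TPdh-/-. Of the 2 tested there, 1 was higher and 1 lower. CD8 T cell markers were lower in TPdh-/-, 7 of 8 in TE and 5 of 8 in TM. Whether the CD8+ T cells or other cells expressed these marker genes was not tested, nor was the part of other cells in the member differences. In bulk RNA, fewer cells of a type and less RNA per cell cannot be told apart. Over all libraries, the sums were at most 0.14 TPM for fibroblast, 3.32 TPM for dendritic cell, 1.83 TPM for neutrophil, 3.9 TPM for mast cell and basophil, 20.4 TPM for CD4 T cell and 38.5 TPM for B cell markers. Col3a1, Cd209a and Elane were at 0 in every library.

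Whether the genotype effect differed between the cultures was tested as the difference in TM minus that in TE. It was below 0 for 16 of the 31 members and above 0 for none, against 7.51% of all genes below and 8.05% above, 15.6% in all. On the log2(TPM + 1) scale the share of positive calls among all genes fell from 51.7% to 18.6% as the median of all genes shifted by -0.12, and 24 members were called. The 16 were 5 of 6 serine and one-carbon enzymes, 5 of 8 transporters, 3 of 5 brakes, Aldh18a1, Asns and Atf4. Aldh1l2 had the largest value (-3.05 ± 0.62, edgeR adjusted p = 0.027), at few counts. It had 20 to 39 counts in TPdh-/- TE libraries and 6 or fewer in every other library. It was thus tested only through TPdh-/- TE, and a value above 0 was hardly open to it. Its call adds no independent support. Next came Slc7a5 (-1.34 ± 0.21, edgeR adjusted p = 8.2e-05), Slc1a4 (-1.28 ± 0.27), Slc7a1 (-0.96 ± 0.17), Shmt2 (-0.94 ± 0.18) and Asns (-0.94 ± 0.18). Slc3a2 (-0.72 ± 0.089) had the smallest edgeR adjusted p, 3.5e-05. Atf4 differed by -0.61 ± 0.086 (edgeR adjusted p = 1.4e-04). Asns and Slc1a4 were higher in TPdh-/- in both cultures, but less so in TM. The calls for Trib3, Ppp1r15a, Phgdh and Aldh1l2 were each lost in 6 to 9 of the 16 fits that left out 1 library, with edgeR adjusted p of 0.050 to 0.079. For Nupr1, Chac1, Cth, Slc6a9 and Slc7a3, each at 2 to 75 counts over a TM group, edgeR called no difference between cultures. DESeq2 called 19 members, adding Slc6a9 (-2.07, adjusted p = 0.024), Slc7a3 (-1.43, adjusted p = 0.036) and Atf5 (-0.66, adjusted p = 0.041). On log2 CPM limma called Nupr1, Chac1, Slc6a9 and Slc7a3, and on log2(TPM + 1) all 5.

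Most members were lower in TM than in TE in both genotypes. In WT cells, 21 of 31 members were lower in TM than in TE and 2 were higher, 74.2% called. Of all genes, 34.3% were lower and 34.3% higher, 68.6% in all. The share of members called in WT was thus near that of all genes, and the members differed from them in direction. Between libraries, 21 members and 63.9% of all genes did not overlap. The members' median log2 difference was -0.77. In TPdh-/- cells, 28 were lower and 0 higher, against 34.7% and 33.0% of all genes, 67.7% in all, with 28 members and 59.8% of all genes not overlapping, and the median was -1.72. Each of these comparisons shares its libraries with a genotype comparison above, so they are set side by side and not correlated. Atf3, Nupr1, Chac1, Aldh1l2, Cth, Slc6a9 and Vldlr had enough counts for the test only with the TE libraries included. A call of higher in TM was hardly open to them. Their calls as lower add no independent support, and the medians above include them. In WT, 50% of all calls were higher on the CPM scale and 65.6% on log2(TPM + 1), where the median of all genes shifted by 0.12 and 17 members were lower.

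Pycr1 and several brakes were several-fold lower in WT TM. Pycr1 fell from 2.04 to 2.38 CPM in WT TE to 0.15 to 0.22 CPM in WT TM, 11.6-fold (edgeR adjusted p = 7.6e-11). Trib3 fell from 18.3 to 26.7 CPM to 4.52 to 6.06 CPM, and Eif4ebp1 from 14.7 to 18.3 CPM to 3.48 to 5.05 CPM, 4.18-fold and 3.80-fold (edgeR adjusted p = 1.6e-10 and 7.2e-11). Asns was 3.04-fold lower in WT TM (edgeR adjusted p = 2.5e-09). Serine enzymes moved less, with Psat1 at -0.92 ± 0.047, Phgdh at -0.77 ± 0.087, Mthfd2 at -0.50 ± 0.042 and Shmt2 at -0.47 ± 0.15. The Shmt2 call was lost on the TPM scale (-0.22, limma adjusted p = 0.18), as was that of Slc3a2 (-0.18 ± 0.053 in CPM, and -0.01 with a limma adjusted p of 0.86 on log2(TPM + 1)). Vldlr had 547, 557, 766 and 251 counts in WT TE and 0, 0, 4 and 0 in WT TM. Nupr1 had 109 counts over the WT TE libraries and 2 over the WT TM libraries. Both were therefore at or near their detection limit in WT TM.

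Slc1a5 and Slc7a1 went the other way in WT. Slc1a5 was at 189, 192, 194 and 189.7 CPM in WT TE and at 247, 251, 224 and 242 CPM in WT TM (0.34 ± 0.037, edgeR adjusted p = 6.5e-05). Slc7a1 was at 122 to 146 CPM in WT TM, above all WT TE libraries (0.37 ± 0.072, edgeR adjusted p = 0.0052). In TPdh-/- cells Slc1a5 did not differ beyond its spread (-0.04 ± 0.071, edgeR adjusted p = 0.60), and Slc7a1 was lower in TM (-0.59 ± 0.15, edgeR adjusted p = 9.6e-05). Cebpb and Slc7a11 were the other members not called between cultures in TPdh-/- cells, at -0.60 ± 0.44 and -0.66 ± 0.44. Aldh18a1, Psph and Ppp1r15a, at 0.01, -0.05 and -0.01 in WT, were -0.61, -0.23 and -0.56 in TPdh-/- and called lower there.

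Upstream of ATF4, the 18 genes for eIF2 kinases, eIF2, its exchange factor eIF2B and its phosphatase moved in both directions in TE, with 5 higher and 4 lower, 50% called against 31.6% of all genes. Eif2ak2, the kinase activated by double-stranded RNA, was higher by 0.43 ± 0.060 and Eif2s2, the beta subunit of eIF2, by 0.40 ± 0.065. Eif2ak3, the kinase of the endoplasmic reticulum, was lower (-0.32 ± 0.097, edgeR adjusted p = 0.0027). In TM, 1 of the 18 was higher (Impact, an inhibitor of the amino acid sensing kinase, 0.24 ± 0.087) and 2 were lower, Ppp1cc (-0.16 ± 0.041) and Dele1 (-0.21 ± 0.085), 16.7% called against 18.3% of all genes. Between cultures Eif2ak3 was lower in TM by -1.45 ± 0.063 in WT and by -1.07 ± 0.089 in TPdh-/-, and Impact was higher by 0.64 ± 0.082 and 0.74 ± 0.056.

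Of 18 further genes of serine, glycine and folate metabolism, 8 were higher and 1 was lower in TPdh-/- TE, and 0 were higher and 1 was lower in TPdh-/- TM. That was 50% and 5.56% called, against 31.6% and 18.3% of all genes. Slc19a1, the reduced folate carrier, rose by 0.51 ± 0.20 in TE and Atic, of purine synthesis, by 0.34 ± 0.12. Gldc, of the glycine cleavage system, rose by 2.18 ± 0.62 from a mean of 0.16 CPM. Mthfd1l, the mitochondrial enzyme that releases formate, was -0.24 ± 0.071 in TM. Of 5 further proline and ornithine genes tested, 3 were higher in TE (60% called), among them Aldh4a1 and Prodh, which degrade proline. Aldh4a1 rose by 0.62 ± 0.021, from 14.05 to 21.7 CPM on average, and its effect in TM was lower by -0.77 ± 0.087 than in TE (edgeR adjusted p = 4.4e-05). Of 11 methionine, cysteine and glutathione genes, 3 were higher and 1 lower in TE (36.4% called), with Mat2a, which makes S-adenosylmethionine, at 0.51 ± 0.20 and Gclc, of glutathione synthesis, at 0.24 ± 0.072.

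Carriers outside the members did not share one direction. Of 13 tested, 3 were higher and 4 lower in TPdh-/- TE, and 2 were higher and 2 lower in TPdh-/- TM. That was 53.8% and 30.8% called, against 31.6% and 18.3% of all genes. Slc7a6 rose by 0.40 ± 0.067 in TE, while the aromatic amino acid carrier Slc16a10 was at -0.79 ± 0.18. In TM, Slc43a2 and Slc43a1, carriers of large neutral amino acids, were at -0.43 ± 0.10 and -0.53 ± 0.17. Among 20 amino acid sensing and mTORC1 genes, 5 were higher and 2 lower in TE, 35% called and so near the 31.6% of all genes. Castor1, the arginine sensor, rose from 4.65 to 11.7 CPM on average (1.32 ± 0.062, edgeR adjusted p = 4.1e-08), and Rragd, a Rag GTPase, from 1.07 to 4.05 CPM (1.91 ± 0.27). The Castor1 effect was lower in TM by -1.14 ± 0.13 (edgeR adjusted p = 2.4e-05). In TM only Sesn1 (0.33 ± 0.029) and Rragd (0.75 ± 0.18) of these 20 were called, 10% against 18.3% of all genes.

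The 21 tested partners and further ATF4-linked genes rose in TE more often than they fell, with 10 higher and 1 lower, 52.4% called against 31.6% of all genes. Gpt2, the mitochondrial alanine aminotransferase, rose from 2.36 to 8.72 CPM (1.88 ± 0.20, edgeR adjusted p = 2.5e-07) and Nars, the asparaginyl-tRNA synthetase, from 188 to 269 CPM (0.52 ± 0.078). The transcription factors Maf and Nfe2l2 rose by 1.46 ± 0.19 and 0.39 ± 0.058. In TM 2 were higher, Maf (2.83 ± 0.28) and Pck2, the mitochondrial phosphoenolpyruvate carboxykinase (0.67 ± 0.076), and Ndrg1 was lower (-0.63 ± 0.11), 14.3% called against 18.3% of all genes. The effect in TM minus that in TE was -1.82 ± 0.26 for Gpt2, -0.55 ± 0.095 for Nars and -0.45 ± 0.057 for the seryl-tRNA synthetase Sars, and 1.37 ± 0.34 for Maf. Most of these 21 genes, 15 in WT and 16 in TPdh-/-, were lower in TM than in TE, against 34.3% and 34.7% of all genes.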

How the data were processed

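Poly(A) RNA libraries made with an unstranded kit were sequenced by the authors, who aligned reads with STAR 2.7.6a to mm10 (GRCm38) and deposited per gene the expected counts and TPM of RSEM 1.3.3. They also deposited FPKM, which was not used. The annotation release is not given in the sources used here. Of the deposited gene identifiers, 99.5% matched GENCODE M21. Expected counts, which total 53007257 to 73507566 per library, were rounded and filtered with filterByExpr (15277 genes left). They were scaled by TMM and fitted with edgeR 4.0.16 quasi-likelihood on all 16 libraries, with 1 mean per group, and p-values were adjusted by Benjamini-Hochberg over all genes tested. SE is that of the difference between group means of log2 CPM over libraries, computed with an offset of 2 counts. The difference printed beside it is that of the edgeR fit, which uses another offset. For members with few counts the SE is therefore not on the scale of that difference. Alternatives were RLE and upper quartile scaling, no filter, DESeq2 1.42.0, limma 3.58.1 on log2 CPM and on log2(TPM + 1) and log2(TPM + 0.1), only the groups compared, and each library left out. The members, gene lists and tests were chosen with earlier results of these data known. All members are named. From each further list, up to 4 called genes per comparison were eligible by smallest adjusted p, of which some are named. Some genes of these lists are counted but not reported here by name.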

Additional observations from a re-analysis of the deposited data

Results flagged for a closer look

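In 7 groups of 4 libraries, 1 library stood far from the other 3 in CPM. Chance gives such a gap in about 1 of 20 groups, and 124 groups were examined. Ddit3 was low in WT TM library 12 (6.72 CPM, the others 8.59 to 8.87) and in TPdh-/- TM library 14 (8.85 CPM, the others 10.9 to 11.0). Sesn2 was high in TPdh-/- TE library 8 (26.0 CPM, the others 20.5 to 21), and Ppp1r15a in WT TM library 12 (32.6 CPM, the others 23.8 to 25.2). Aldh1l2 was high in WT TE library 2 (0.0812 CPM, the others 0.0469 to 0.052). Cth (0.0342 CPM, the others 0.0156 to 0.0185) and Vldlr (0.0685 CPM, the others at 0) were high in WT TM library 11. The last 3 rest on 5 counts or fewer.

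The interaction term of the edgeR fit, given as the log2 difference in TM minus that in TE, was called for 16 of the 31 members tested. Of all genes tested, 7.51% were called below 0 and 8.05% above, 15.6% in all. The values were -0.61 for Atf4, -0.57 for Trib3, -0.78 for Sesn2 and -0.55 for Ppp1r15a. For serine and one-carbon enzymes they were -0.44 (Phgdh), -0.50 (Psat1), -0.94 (Shmt2), -0.80 (Mthfd2) and -3.05 (Aldh1l2). They were -0.62 for Aldh18a1 and -0.94 for Asns. For carriers they were -1.34 (Slc7a5), -0.72 (Slc3a2), -0.96 (Slc7a1), -1.28 (Slc1a4) and -0.37 (Slc1a5). The calls for Trib3, Ppp1r15a, Phgdh and Aldh1l2 were each lost in 6 to 9 of the fits that left out 1 library. Aldh1l2 was tested only through its counts in TPdh-/- TE.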

How the results depend on the processing

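No call changed direction in any alternative. The members called numbered 6 higher in TM (5 to 7 with 1 library of the groups compared left out), 28 higher in TE (26 to 28, and 29 without WT TM library 12), 21 lower and 2 higher between cultures in WT (20 to 21, and 2), 28 lower in TPdh-/- (28 to 29) and 16 with a smaller effect in TM than in TE (12 to 17). On log2(TPM + 1), 1 member was called in TM, and with limma on log2 CPM 8 were. In the fit of only the 2 TM groups 4 members were called, and the members' median log2 difference was -0.06. Atf3 and Cth passed the filter only with the TE libraries included. Members lower in TE numbered 0 to 1 with 1 such library left out, and were 1 without the filter, Vldlr each time. Over all genes, counts moved by over 1.5 times mainly with limma on TPM. In TM, 944 were higher and 693 lower on log2(TPM + 1) and 1038 and 738 on log2(TPM + 0.1), against 1685 and 1111. In a fit of only the 2 TM groups, 665 were lower. Genes lower in TE were 688 and 666 on the 2 TPM scales against 2182, those lower in WT TM than in WT TE 3368 and 3470 against 5236, and for the difference of effects 520 higher and 2277 lower, and 518 and 2273, against 1230 and 1148. Without libraries 5 and 12 together, chosen after seeing earlier results, 7, 29 and 17 members were called in TM, in TE and for the difference of effects, and the calls of Phgdh and Aldh1l2 for the last were lost. The difference of effects was also called for Atf5, Slc6a9 and Slc7a3 with DESeq2, 19 members in all, and for Nupr1, Chac1, Pycr1, Slc6a9 and Slc7a3 with limma on log2 CPM, 21 members in all. Depth limits members under 10 counts in a group. No paired analysis was possible because the groups share no replicate numbers. The causes of these changes were not tested.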
